A study of Homo sapiens with 4 samples.

Results

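ZNF genes are the zinc finger genes named by ZNF and a number. They were followed through 4 RNA libraries labelled as the human cell line KYSE-150, which was derived from a squamous carcinoma of the esophagus. A row of the table belonged to the set when its symbol was ZNF, digits and at most 1 further letter, and when its plain mean over the 4 libraries reached 5 FPKM, a count of sequenced fragments scaled to transcript length and to the size of the library. This rule kept 95 of 483 ZNF rows, or 19.7%, while 7379 of all 17064 rows (43.2%) reached the same mean. Members were thus chosen by their mean level in these same libraries, so their levels, and the counts made from them below, are descriptions.

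Most ZNF proteins carry C2H2 zinc fingers, short loops in which cysteines and histidines hold a zinc ion and each finger reads a few bases of DNA. Many also have a KRAB box, which recruits the corepressor KAP1 (TRIM28) and, through it, the histone methyltransferase SETDB1 to silence transposons and other repeats, and these genes stand in clusters, above all on chromosome 19. A smaller number have a SCAN box, through which they pair, or no such box, and some act on RNA, ribosomes or the mitotic spindle in place of DNA.

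Per the labels, the knockdown cells carried a stable short hairpin RNA against NSUN6, an RNA methyltransferase that makes 5-methylcytosine. The control was, by the same labels, the same line with normal NSUN6 expression. Cells of both kinds were treated with cycloheximide, which halts ribosomes on their messages, and lysed. A small part of the cleared lysate gave the input RNA, and the polyribosome-bound RNA was spun out of the rest through sucrose. Each of the 4 groups, namely knockdown polyribosome, knockdown input, control polyribosome and control input, was 1 library of poly(A) RNA, so differences could not be set against replicates and no p-value is given. Whether the hairpin cells were a clone or a pool is not given in the sources used here.

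The names of the knockdown columns are in doubt. The last line of the deposited table holds other column names, which call them K30 with a hairpin against Mettl1 and give their polyribosome and input columns in the opposite order. That line gives the control columns a cell code other than K30 and a hairpin against GFP. Whether K30 is another cell line is not given in the sources used here. The header, which matches the sample labels, was followed. The cells of the knockdown columns are called knockdown-labelled, and the exchanged order was computed too. NSUN6 itself was listed at 0.38 FPKM in polyribosome and 3.83 FPKM in input RNA of knockdown-labelled cells, against 10.1 and 8.85 FPKM in control cells, so it was lower in knockdown-labelled cells in either order. The cells also differed in squamous markers. KRT5, a basal squamous keratin, was at 0.70 and 0.45 FPKM in knockdown-labelled polyribosome and input RNA, against 1162 and 906 FPKM in control, and SOX2, a squamous lineage factor, was at 8.28 and 39.5 FPKM, against 0.27 and 0.31 FPKM. KRT17 was at 11.7 and 7.39 FPKM, against 330 and 274 FPKM, and KRT14 at 3.92 and 3.83 FPKM, against 87.7 and 64.8 FPKM. The squamous markers did not all differ, as KRT6A was at 40 and 34.2 FPKM, against 39.8 and 29.5 FPKM. TP63 was at 2.16 and 23.7 FPKM, against 28.8 and 30.2 FPKM. The 6 listed squamous markers summed to 66.8 and 109 FPKM, against 1648 and 1304 FPKM, sums made up mostly of KRT5 in control cells. Their part in the results below was not tested. The simple epithelial keratins KRT8 and KRT18 were between 1503 and 2547 FPKM in all 4 libraries. EPCAM and CDH1, the rest of the epithelial list, were not level. EPCAM was at 28.05 and 186 FPKM in knockdown-labelled polyribosome and input RNA, against 76.6 and 66.4 FPKM in control. CDH1 was at 11.15 and 47.7 FPKM, against 26.3 and 21.3 FPKM. Summed markers were 0.86 to 2.98 FPKM for fibroblasts (5 genes), 0.22 to 0.78 FPKM for endothelium (4 genes) and 2.12 to 3.80 FPKM for immune cells (5 genes). None of these 14 genes reached a mean of 5 FPKM, and DCN and VWF were at most 0.12 FPKM in any library. Read depth is unknown. The hairpin, any difference of cell identity and the single library cannot be told apart in any comparison of the cells below, nor can fewer cells with a message be told from less of it per cell.

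Promoters of 6 members that differed in the same direction in both fractions are shown first, because these members keep their direction under either naming of the columns. Each runs from 250 bases before to 50 bases after the start of the gene in the RefSeq table of GRCh38.p14, read 5′ to 3′ on the strand of the gene, with every CG dinucleotide in capitals. ZNF526 (chr19:42220062-42220361, plus strand), ZNF747 (chr16:30534809-30535108, minus strand) and ZNF428 (chr19:43619580-43619879, minus strand) were at least 2-fold higher in knockdown-labelled cells, on the scale of FPKM + 1, in both fractions. ZNF226 (chr19:44164850-44165149, plus strand), ZNF544 (chr19:58228664-58228963, plus strand) and ZNF695 (chr1:247008008-247008307, minus strand) were at least 2-fold lower in both. ZNF703 and ZNF488 were also at least 2-fold higher in both fractions, and ZNF165 and ZNF114 lower, and these 4 are named only.
ZNF526: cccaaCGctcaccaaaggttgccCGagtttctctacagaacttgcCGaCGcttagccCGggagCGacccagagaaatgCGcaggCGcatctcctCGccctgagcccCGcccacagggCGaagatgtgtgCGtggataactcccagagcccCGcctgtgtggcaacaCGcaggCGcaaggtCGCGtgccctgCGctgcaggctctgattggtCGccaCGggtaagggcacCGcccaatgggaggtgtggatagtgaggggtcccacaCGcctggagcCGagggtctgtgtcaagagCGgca
ZNF747: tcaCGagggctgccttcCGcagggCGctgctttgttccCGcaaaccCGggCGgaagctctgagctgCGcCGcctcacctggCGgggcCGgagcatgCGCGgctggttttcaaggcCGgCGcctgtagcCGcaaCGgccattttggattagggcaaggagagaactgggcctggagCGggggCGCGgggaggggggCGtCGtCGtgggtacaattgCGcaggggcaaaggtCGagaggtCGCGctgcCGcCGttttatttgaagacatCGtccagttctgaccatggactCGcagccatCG
ZNF428: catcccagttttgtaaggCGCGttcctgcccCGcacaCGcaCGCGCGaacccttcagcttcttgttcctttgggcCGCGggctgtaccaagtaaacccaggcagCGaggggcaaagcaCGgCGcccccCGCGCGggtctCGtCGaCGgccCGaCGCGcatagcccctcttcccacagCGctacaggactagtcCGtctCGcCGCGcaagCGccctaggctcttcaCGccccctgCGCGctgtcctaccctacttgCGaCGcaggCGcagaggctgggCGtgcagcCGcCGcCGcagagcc
ZNF226: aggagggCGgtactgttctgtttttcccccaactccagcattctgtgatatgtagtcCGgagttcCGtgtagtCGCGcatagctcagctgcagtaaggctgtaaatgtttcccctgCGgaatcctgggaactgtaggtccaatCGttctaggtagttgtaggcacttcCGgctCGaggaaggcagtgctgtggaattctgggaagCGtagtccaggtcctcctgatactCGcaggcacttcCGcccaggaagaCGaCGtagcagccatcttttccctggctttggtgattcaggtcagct
ZNF544: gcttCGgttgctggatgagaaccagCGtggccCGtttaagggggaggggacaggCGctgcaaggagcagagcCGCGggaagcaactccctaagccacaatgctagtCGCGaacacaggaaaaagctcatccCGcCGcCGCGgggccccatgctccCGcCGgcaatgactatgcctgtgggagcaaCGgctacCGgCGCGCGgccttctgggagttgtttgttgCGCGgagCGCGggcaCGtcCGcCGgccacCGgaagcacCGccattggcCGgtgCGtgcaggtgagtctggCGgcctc
ZNF695: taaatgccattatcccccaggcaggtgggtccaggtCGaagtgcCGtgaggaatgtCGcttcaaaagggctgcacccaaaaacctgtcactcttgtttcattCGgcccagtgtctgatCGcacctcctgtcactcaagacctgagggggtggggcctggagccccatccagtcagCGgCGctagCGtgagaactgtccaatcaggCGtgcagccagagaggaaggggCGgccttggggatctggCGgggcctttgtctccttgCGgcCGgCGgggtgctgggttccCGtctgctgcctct

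All 6 held at least the 14 CG dinucleotides of the median promoter in the table. ZNF526, ZNF747 and ZNF428 held 24, 31 and 37 CG dinucleotides in 300 bases, and ZNF226, ZNF544 and ZNF695 held 14, 31 and 15, so the counts of the 2 sets overlapped. The table had promoters for 78 of the 95 members, with a median of 26 CG dinucleotides, against 21 for 329 ZNF genes under the threshold and 27 for 6092 genes at the same level. On either strand, the GC box letters GGGCGG stood in 70.5% of the members' promoters, in 61.7% of those of the other ZNF genes, in 73.8% of those of 6092 genes at the same level and in 45.0% of all 35116 promoters. The letters CCGGAAG, read by ETS factors, stood in 32 of the 78 promoters of members, against 39.8% of those of the other ZNF genes, 22.4% of 6092 genes at the same level and 10.3% of all promoters. TATAAA stood in 1.28%, 3.65%, 4.96% and 11.5% of the same 4 sets. ACTACAA, a piece of the element bound by ZNF143 and ZNF76, stood in 10.3% of the members' promoters, against 4.56%, 4.45% and 2.77%. Such matches are descriptions of letters and not of binding.

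Few KRAB genes and many GC-rich genes reached the threshold. By a match to a consensus built from the ZNF proteins themselves, 311 rows were counted as encoding a KRAB box, and 26 of them (8.36%) were members. Of 11 rows that matched the SCAN box alone 6 were members, and of 160 rows that matched neither 63 (39.4%). A box that departs from the consensus can be missed by this match. In transcripts with at least 60% G and C, 40 of 54 ZNF rows (74.1%) were members, against 35 of 71 (49.3%) at 50 to 60% and 20 of 357 (5.60%) under 50%. GC content also ordered the KRAB genes. Of those at 60% or more, 8 of 9 were members, of those between 50 and 60%, 11 of 30, and of those under 50%, 7 of 272. Among rows without a KRAB box the counts were 32 of 45, 24 of 41 and 13 of 85. The median transcript of a member was 58.3% G and C, against 42.2% for the ZNF rows under the threshold and 52.3% for all genes at that level. Members had a median of 7 fingers, from 0 to 31, and the rows under the threshold a median of 11, from 0 to 36. ZNF142, with 31 fingers, and ZNF646, with 30, had the most among members.

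**Figure D1:**
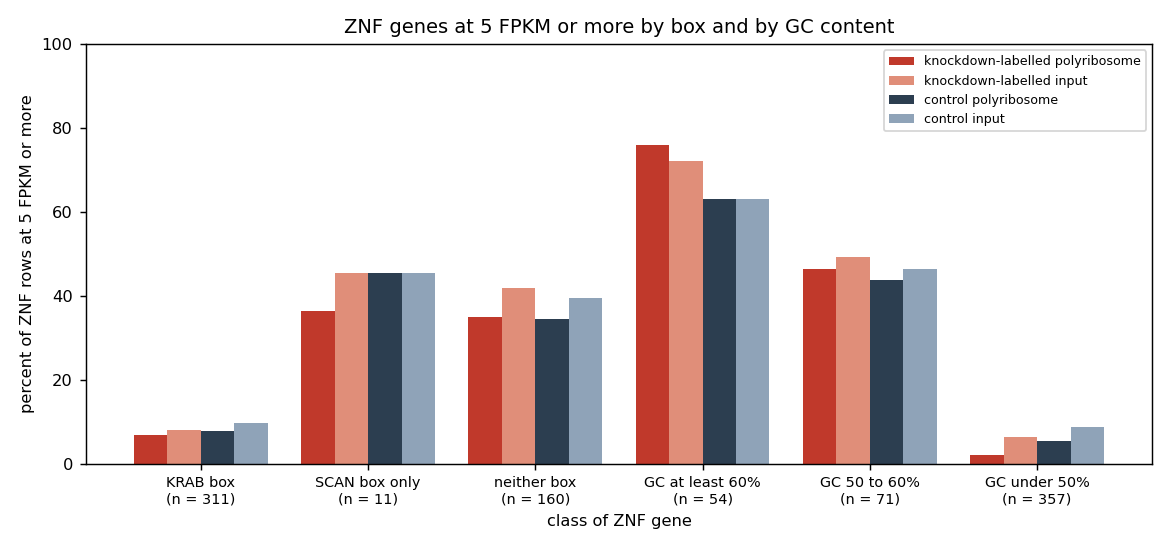
Share of ZNF rows at 5 FPKM or more (y axis, percent) in each of the 4 libraries, by box and by GC content of the transcript, with the number of rows under each class. Bars are single libraries without error. The KRAB class lies between 6.75% and 9.65%, and the class of at least 60% G and C between 63.0% and 75.9%.

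By chromosome, 26 of the 234 ZNF rows on chromosome 19 were members (11.1%), against 16 of 31 on chromosome 16, 8 of 30 on chromosome 7, 8 of 20 on chromosome 1 and 5 of 8 on chromosome 20. No row on chromosome 9 (0 of 12) or 18 (0 of 9) was a member. Of all protein-coding genes on chromosome 19, 46.8% reached the mean of 5 FPKM, and on chromosome 16, 55.9%. On chromosomes 7, 1, 20, 9 and 18 these shares were 42.7%, 45.3%, 52.9%, 48.3% and 32.9%. By the RefSeq order of protein-coding genes, 25 members stood next to another member, in 14 neighbouring pairs.

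Most members were well expressed in every library, none was listed at 0, and 3 were under 1 FPKM in any library, each on knockdown-labelled polyribosomes. Of the 95, 64 were at 5 FPKM or more in all 4 libraries, 11 in 3 and 20 in 2. The lowest, median and highest member was at 0.50, 14.2 and 223 FPKM in knockdown-labelled polyribosome RNA, and in the input of these cells at 1.81, 9.97 and 133 FPKM. In control cells these were 2.86, 10.1 and 112 FPKM in polyribosome RNA and 2.67, 11.5 and 104 FPKM in input. The members together took 0.374% of all FPKM on knockdown-labelled polyribosomes and 0.307% in knockdown-labelled input, against 0.291% and 0.303% in the control fractions. Just inside the threshold were ZNF343 with a mean of 5.04 FPKM, ZNF784 with 5.20, ZNF341 with 5.24 and ZNF500 with 5.28. Just outside it were ZNF830 with 4.95 FPKM, ZNF416 with 4.79, ZNF623 with 4.77 and ZNF653 with 4.71.

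**Figure D2:**
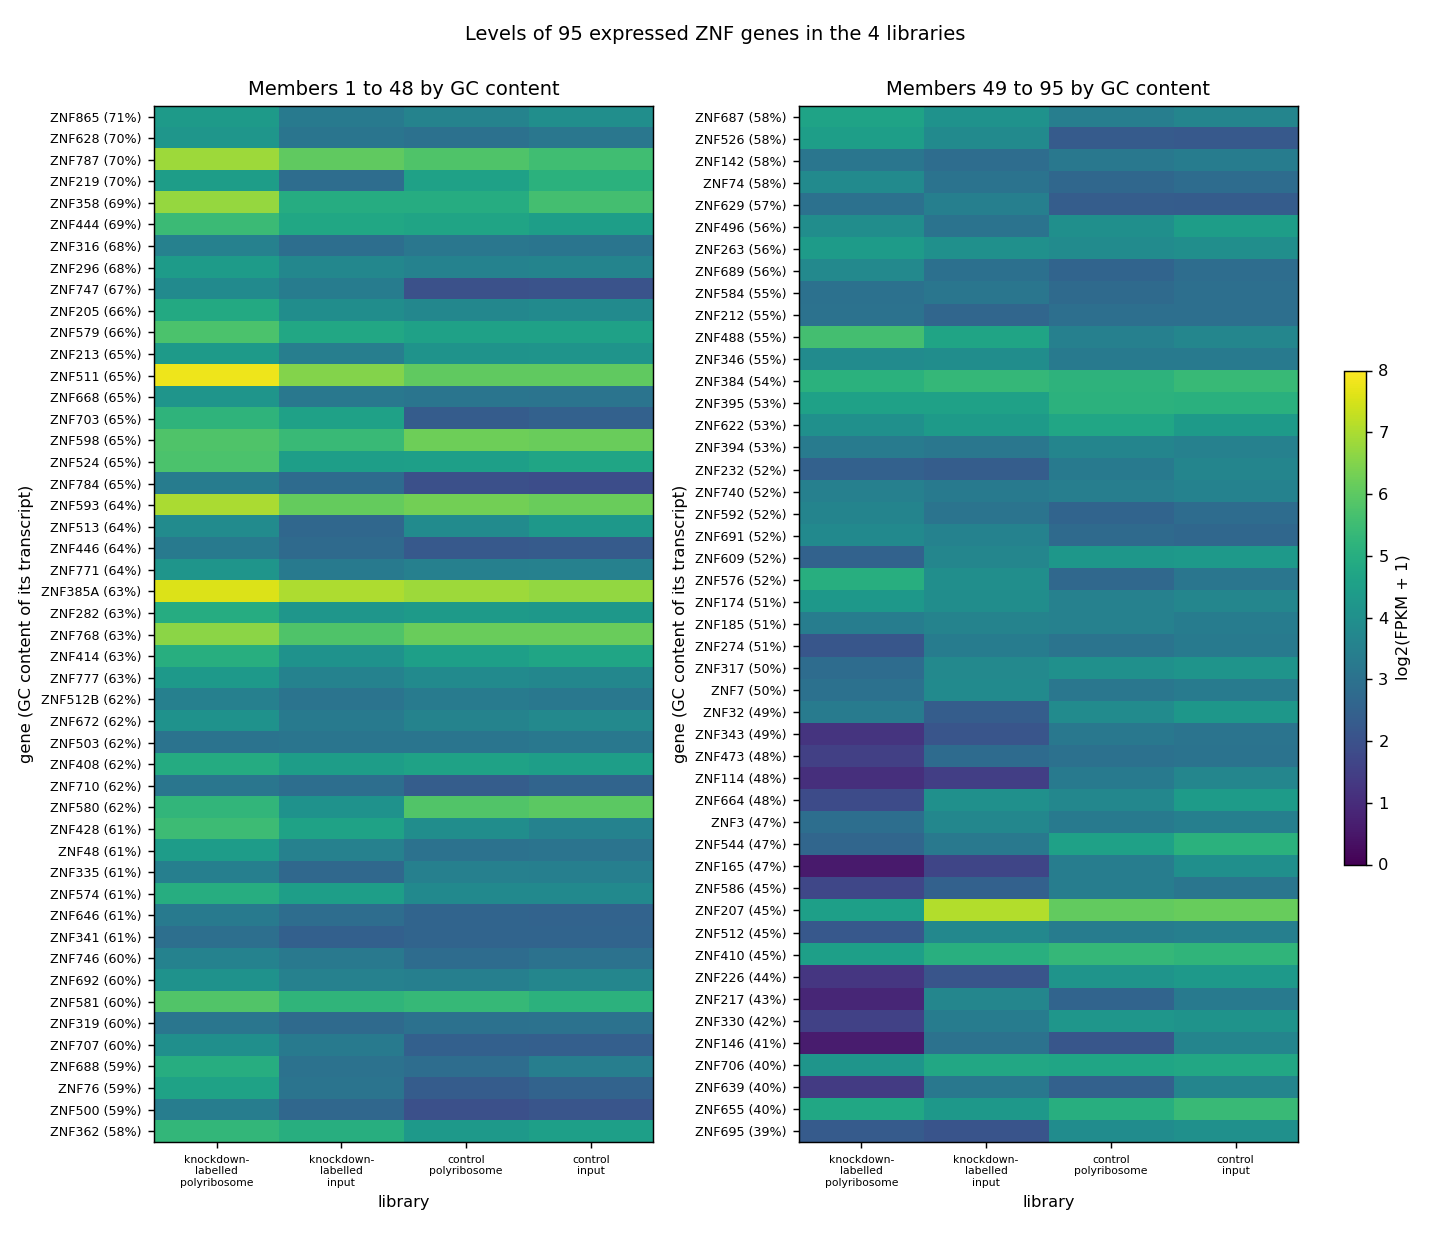
Level of each of the 95 members, as log2(FPKM + 1) by colour, in the 4 libraries (columns), with genes (rows) in order of the GC content of their transcript, given in brackets. The darkest cells stand in the knockdown-labelled polyribosome column among the genes of low GC content, such as ZNF146 at 0.51 FPKM and ZNF165 at 0.50 FPKM.

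The 10 most abundant members were ZNF385A, ZNF511, ZNF593, ZNF768, ZNF207, ZNF787, ZNF598, ZNF358, ZNF580 and ZNF581, of which ZNF593, ZNF207 and ZNF598 are described with their roles below. ZNF385A, a binder of RNA and of p53, had the highest mean, with 189.7 FPKM in polyribosome and 129 FPKM in input RNA of knockdown-labelled cells, against 112 and 104 FPKM in control cells. ZNF511 followed with 223 and 90.7 FPKM in knockdown-labelled polyribosome and input RNA, against 65.1 and 65.7 FPKM. In both genes the knockdown-labelled polyribosome library was the highest of the 4. ZNF768, whose protein binds MIR repeats, was at 97.2 and 54.2 FPKM, against 71.6 and 71 FPKM. ZNF787 was at 112 and 65.8 FPKM, against 54.4 and 45.8 FPKM. For ZNF768 the knockdown-labelled libraries lay on either side of the control pair, and for ZNF787 both lay above it. ZNF580 was at 37.5 and 15.7 FPKM, against 56.3 and 62.9 FPKM, and its neighbour ZNF581 at 56 and 37 FPKM, against 40.2 and 34.1 FPKM. These 2 genes overlap, and since the strand setting of the counting is not given, the split of reads between them is uncertain. In all, 30 members overlap another coding gene and are uncertain in the same way, among them ZNF593, ZNF511, ZNF688, ZNF219, ZNF747 with ZNF768, and ZNF646 with ZNF668.

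Of 13 genes listed for work on ribosomes and RNA 11 were in the table and 7 were members, and in input RNA none of these 7 differed by 2-fold, beside 13.2% of all genes higher and 14.4% lower. Here and below, differences are of log2(FPKM + 1), and for the cells they are knockdown-labelled minus control. ZNF593, the human relative of a yeast factor for large ribosomal subunits, was at 124 FPKM in polyribosome and 67.9 FPKM in input RNA of knockdown-labelled cells, against 76.8 and 71.8 FPKM in control cells, differences of 0.69 and -0.08. ZNF598, the ubiquitin ligase that marks collided ribosomes, was at 54.4 and 41.9 FPKM, against 74.5 and 71.4 FPKM, so both knockdown-labelled libraries were below both control libraries. ZNF622, a late assembly factor of the large subunit, was at 15.1 and 19.7 FPKM, against 25.9 and 19.4 FPKM, and its polyribosome difference was -0.74. ZNF346, which binds double-stranded RNA, was at 13.5 and 14.3 FPKM, against 8.79 and 8.74 FPKM. Beside 32.9% of all genes, 2 of the 7 were at least 2-fold lower on polyribosomes, namely ZNF330, a nucleolar protein, at 1.94 and 9.16 FPKM, against 17.6 and 16.1 FPKM, and ZNF473, a partner of the U7 particle that processes histone messages. ZNF473 was at 1.84 and 5.99 FPKM, against 6.89 and 7.22 FPKM. Both have transcripts of low GC content, 41.5% and 48.2%.

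ZNF207 (BuGZ), which loads the checkpoint protein BUB3 at kinetochores, stood apart between the fractions. It was at 21.8 FPKM in polyribosome and 133 FPKM in input RNA of knockdown-labelled cells, against 67.1 and 69.1 FPKM in control cells. The knockdown-labelled input was therefore the highest of the 4 and the knockdown-labelled polyribosome library the lowest, and exchanging the column names would turn this round. ZNF185, a LIM domain protein of the actin cytoskeleton, was near level at 9.51 and 11 FPKM, against 10.4 and 9.37 FPKM. The other 2 genes listed with them, ZNF365 and ZNF750, a factor of squamous differentiation, were under the threshold with means of 2.66 and 0.77 FPKM.

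Of 15 listed partners of chromatin complexes, all in the table, 6 were members, and their polyribosome differences went both ways, with 2 of them higher and 2 lower by 2-fold or more, beside 16.7% and 32.9% of all genes. ZNF687 and ZNF592, which form a complex with ZMYND8, were higher. ZNF687 was at 24 and 15.8 FPKM in knockdown-labelled polyribosome and input RNA, against 9.74 and 11.4 FPKM, and ZNF592 at 11.3 and 7.44 FPKM, against 4.95 and 6.05 FPKM. In both genes each knockdown-labelled library lay above each control library. ZNF217, an oncogene whose protein works with CtBP and CoREST, was at 0.80 and 11.7 FPKM, against 5.00 and 8.86 FPKM. ZNF609, which binds the cohesin loader NIPBL, was at 4.72 and 11.8 FPKM, against 17.8 and 18.4 FPKM. These were the 2 lower on polyribosomes, by log2 differences of -1.74 and -1.72, and with the columns exchanged the difference of ZNF217 turned to 1.08. ZNF335, of a histone H3 lysine 4 methyltransferase complex, differed by -0.04 on polyribosomes and -0.75 in input, and ZNF512B by 0.16 and -0.11.

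Of 15 listed sequence-specific regulators without a KRAB box 8 were members. ZNF703, a corepressor of the NET family amplified in luminal breast cancer, had the highest difference of all members in both fractions, at 35.9 and 23 FPKM in knockdown-labelled polyribosome and input RNA, against 4.03 and 4.60 FPKM. Its log2 differences were 2.87 on polyribosomes and 2.10 in input. ZNF76, the paralog of ZNF143, was at 23.4 and 7.36 FPKM, against 3.98 and 4.83 FPKM. ZNF143 itself did not reach the threshold, with 0.22 and 3.36 FPKM, against 3.79 and 3.66 FPKM. On polyribosomes this pair of paralogs therefore differed in opposite directions, by 2.30 for ZNF76 and -1.97 for ZNF143. The value of ZNF143 rests on the 0.22 FPKM of 1 library, and its input difference was -0.10. With the columns exchanged both its knockdown-labelled values would still be below both control values, but on polyribosomes only as 3.36 against 3.79 FPKM. ZNF410, known for its control of the NuRD helicase gene CHD4, was at 21.9 and 31.9 FPKM, against 38.8 and 36.3 FPKM. ZNF384, a binder of A-rich DNA, was at 33.6 and 38.8 FPKM, against 35.1 and 40.6 FPKM, with differences of -0.06 and -0.06. Both were thus within 2-fold in each fraction. ZNF219, at 21 and 6.32 FPKM, against 22.7 and 33.5 FPKM, was low in 1 library, the knockdown-labelled input, with a difference of -2.24. ZNF146 and ZNF664 were lowest on knockdown-labelled polyribosomes, at 0.51 and 2.52 FPKM, against 3.45 and 12.1 FPKM on control polyribosomes.

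Of 14 KRAB and SCAN proteins listed for a described target 3 were members, and none of these differed by 2-fold in input RNA, beside 13.2% of all genes higher and 14.4% lower, or on polyribosomes, beside 16.7% and 32.9%. ZNF263 was at 20 and 15.2 FPKM in knockdown-labelled polyribosome and input RNA, against 13.4 and 14.3 FPKM. ZNF746 (PARIS), a target of the ligase parkin, was at 10.7 and 8.39 FPKM, against 6.13 and 7.05 FPKM. ZNF274, which brings SETDB1 to the 3′ ends of other ZNF genes, was at 3.41 and 9.22 FPKM, against 7.47 and 8.85 FPKM, and its polyribosome difference of -0.94 was close to 2-fold. The 11 that missed the threshold included the retrotransposon repressors ZNF91 and ZNF93, with means of 0.06 and 0.005 FPKM, and ZNF445, which guards imprinting, with 0.76 FPKM.

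In input RNA the members as a group lay close to 0, with a median difference of -0.07, against 0.01 over all genes at that level. That small value has no stable sign, being 0.03 after scaling the libraries to equal sums. At least 2-fold higher were 6 members, or 6.32%, beside 13.2% of all genes, and at least 2-fold lower 12 members, or 12.6%, beside 14.4%. The 6 were ZNF703 (2.10), ZNF526 (1.59), ZNF747 (1.29), ZNF629 (1.12), ZNF428 (1.07) and ZNF488 (1.01), the last a cofactor of Olig2 in mouse oligodendrocytes. The lowest were ZNF165 (-2.31), a cancer/testis antigen gene, ZNF219 (-2.24), ZNF226 (-2.20), ZNF114 (-2.19), ZNF695 (-1.94) and ZNF580 (-1.93). With the columns exchanged, 24 members were higher and 19 lower, beside 1171 and 2343 of the 7379 genes, and the median was 0.40, against -0.23 over all genes.

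In polyribosome RNA the SD across members was 1.23, against 0.85 in input, and over all genes at that level it was 1.60 against 1.29. At least 2-fold higher were 27 members (28.4%), beside 16.7% of all genes, and 17 (17.9%) were at least 2-fold lower, beside 32.9%. The median was 0.44, against -0.28 over all genes. With GC content and length removed it was -0.30, against -0.38 over all genes. Over the 230 ZNF rows that averaged 1 FPKM or more it was -0.33, against -0.48 over all such genes. Over all ZNF rows it was -0.069, against -0.043 over all rows. With the columns exchanged, the split of 27 higher against 17 lower became 7 (7.37%) against 10 (10.5%), beside 12.7% and 14% of all genes. The median was then 0.078, against -0.008 over all genes. With GC content and length removed the split was 8 (8.42%) against 16 (16.8%), beside 10.2% and 26.4%. A pseudocount of 5 gave 14 (14.7%) against 11 (11.6%), beside 13.2% and 24.2%. The highest were ZNF703 (2.87), ZNF576 (2.33), ZNF76 (2.30), ZNF526 (2.18), ZNF488 (2.12) and ZNF688 (2.12). ZNF576 was at 31.5 and 14.4 FPKM in knockdown-labelled polyribosome and input RNA, against 5.48 and 7.82 FPKM, and it lies next to ZNF428 on chromosome 19, at 44.1 and 23.5 FPKM, against 14.2 and 10.7 FPKM. In both neighbours each knockdown-labelled library was above each control library. The lowest were ZNF226 (-2.88), ZNF165 (-2.80), ZNF330 (-2.66), ZNF114 (-2.21), ZNF343 (-2) and ZNF544 (-1.91).

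**Figure D3:**
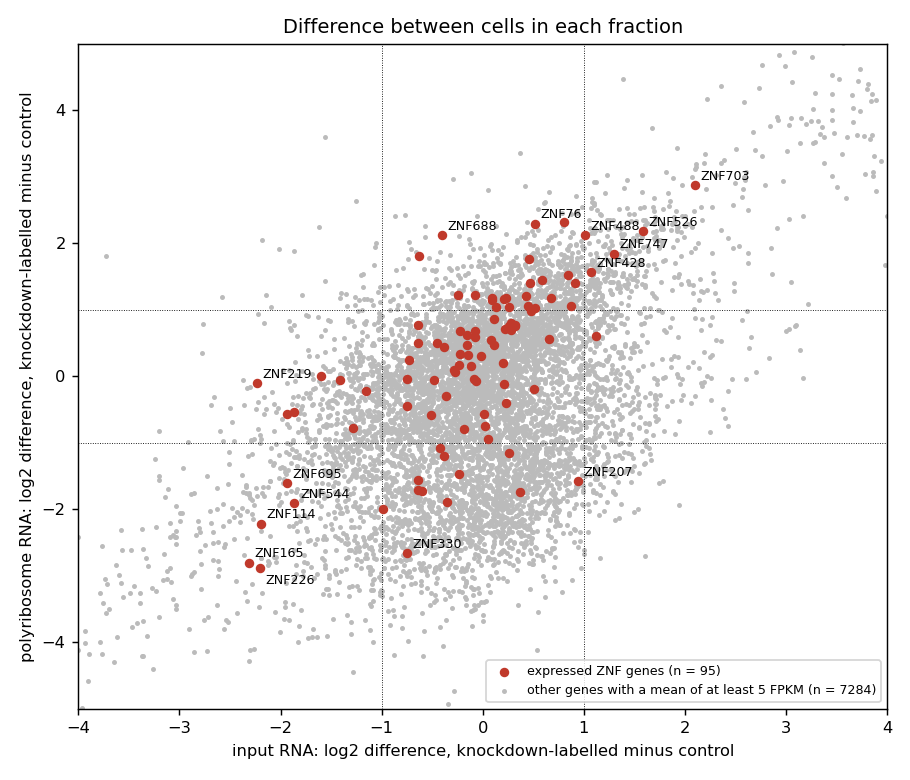
Difference of log2(FPKM + 1), knockdown-labelled minus control, in polyribosome RNA (y axis) against input RNA (x axis) for 95 members (red) and 7284 other genes (grey), 1 point per gene from single libraries, with dotted lines at 2-fold. ZNF703, ZNF526, ZNF488, ZNF747 and ZNF428 lie in the upper right corner and ZNF226, ZNF165, ZNF114, ZNF544 and ZNF695 in the lower left.

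Whether both knockdown-labelled libraries lie above or below both control libraries does not depend on how the 2 knockdown columns are named. Members were therefore also sorted by all 4 libraries. In 35 members (36.8%) both knockdown-labelled libraries were above both control libraries, beside 26.1% of all genes, and in 23 (24.2%) both were below, beside 31.3%. The 35 had a median GC content of 60.1% and the 23 a median of 49.4%. Differences of at least 2-fold in both fractions, by which the genes with promoters above were picked, do depend on that naming. By the header they were found in 5 members on the higher side, beside 7.22% of all genes, and in 5 on the lower side, beside 8.48%. A 2-fold gap between every knockdown-labelled and every control library was found in 4 members on the higher side, beside 6.57% of all genes, and in 5 on the lower side, beside 7.02%. The 4 were ZNF703, ZNF526, ZNF488 and ZNF747, and the 5 were ZNF226, ZNF165, ZNF114, ZNF544 and ZNF695, of which 4 have a KRAB box. ZNF526 was at 21.2 FPKM in polyribosome and 13.2 FPKM in input RNA of knockdown-labelled cells, against 3.89 and 3.73 FPKM in control cells. ZNF747 was at 13.2 and 9.17 FPKM, against 2.94 and 3.15 FPKM, and ZNF488 at 47.5 and 24.4 FPKM, against 10.1 and 11.6 FPKM. In these 3 genes the 2 control libraries differed by less than 2 FPKM. On the lower side, ZNF226 was at 1.38 and 3.34 FPKM, against 16.5 and 19 FPKM, and ZNF165 at 0.50 and 2.21 FPKM, against 9.46 and 14.9 FPKM. ZNF114 was at 1.09 and 1.81 FPKM, against 8.69 and 11.8 FPKM. ZNF544 was at 5.29 and 8.39 FPKM, against 22.7 and 33.1 FPKM, and ZNF695 at 3.88 and 3.25 FPKM, against 13.9 and 15.3 FPKM. Both knockdown-labelled values were at or above 5 FPKM, and both control values below it, in 11 members, beside 4.2% of all genes, and 7 members were the reverse, beside 4.24%. A member whose mean lies near the threshold can pass it only through the cells where it is high, so these members were in part selected for their difference. No member reached 5 FPKM in both libraries of 1 kind of cell while staying under 1 FPKM in both of the other. Such genes were also rare among the 7379 background genes, with 114 high in knockdown-labelled cells and 52 high in control cells. A count of 0 among 95 members therefore does not set the members apart.

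Between the 2 fractions of control cells the members lay slightly toward input. The median log2 ratio of polyribosome to input FPKM, each with 1 added, was -0.10 over members, against 0.03 over all genes, and 31 of the 95 were above 0. None was at least 2-fold higher on polyribosomes, beside 0% of all genes, and 2 were at least 2-fold lower, beside 0.759%. These were ZNF146, almost wholly made of fingers, at 3.45 FPKM in polyribosome and 11.5 FPKM in input RNA, and ZNF639 at 4.60 and 11.4 FPKM. Their ratios were -1.49 and -1.15, and ZNF217 (-0.72), ZNF664 (-0.67), ZNF358 (-0.66) and ZNF165 (-0.61) came next. At the other end were ZNF622 (0.40), ZNF428 (0.38), ZNF586 (0.26), ZNF787 (0.24), ZNF581 (0.23) and ZNF444 (0.17). ZNF146 and ZNF664 overlap ZNF565 and a readthrough gene, so their reads are uncertain.

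In knockdown-labelled cells the fractions were further apart, and members went both ways. Members at least 2-fold higher on polyribosomes numbered 11 (11.6%), beside 8.62% of all genes, and 11 were at least 2-fold lower, beside 28.8%. The split was 7 against 16 with libraries scaled to equal sums, where the median of all genes was -0.22 in place of -0.02. The median over members was 0.48, and it was -0.48 with the columns exchanged, where all genes had 0.02. With GC content and length removed it was -0.30, where all genes had -0.37. Over ZNF rows averaging 1 FPKM or more it was -0.40, against -0.27 over all such genes. Over all ZNF rows it was -0.19, against -0.03 over all rows. ZNF688, a KRAB gene, was at 30.8 FPKM in polyribosome and 7.05 FPKM in input RNA of knockdown-labelled cells, and ZNF358 at 106 and 30.2 FPKM. Their ratios of 1.98 and 1.78 were the highest, followed by ZNF219 (1.59), ZNF76 (1.55), ZNF511 (1.29) and ZNF524 (1.25). The lowest were ZNF217 (-2.82), ZNF207 (-2.56), ZNF146 (-2.41), ZNF664 (-2.21), ZNF639 (-1.81) and ZNF330 (-1.79). All of these signs turn if the columns are exchanged.

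GC content ran with this ratio. Across the 95 members, which share their 2 libraries, the ratio in knockdown-labelled cells had a Pearson's r of 0.746 and a Spearman's rho of 0.742 with transcript GC content, against 0.309 and 0.230 in control cells. Across 7063 other genes the values were 0.803 and 0.828 in knockdown-labelled cells, against 0.064 and 0.021 in control cells. Members with at least 60% G and C had a median ratio of 0.76, against 0.75 for other genes of that content. Members between 50 and 60% had 0.33, against 0.24, and members under 50% had -0.89, against -1.47, all of which change sign if the columns are exchanged. In polyribosome RNA of the 2 cells the GC-rich members had 15 of 40 at least 2-fold higher and 0 lower, while those under 50% had 0 of 20 higher and 15 lower. Other genes had 504 of 1432 higher and 95 lower at 60% or more, and 121 of 2947 higher and 1830 lower under 50%. For the input difference between the cells, by contrast, r with GC content was 0.250 over members and -0.076 over other genes. The number of fingers showed almost no relation to the ratio in knockdown-labelled cells (r of 0.00071 over 95 members). KRAB members had a median ratio of 0.34 and members with neither box 0.54. This order did not hold in every class of GC content. At 60% or more G and C, 8 KRAB members had 0.70 and 32 members without a KRAB box 0.81, between 50 and 60%, 11 had 0.38 and 24 had 0.31, and under 50%, 7 had -0.81 and 13 had -1.52.

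**Figure D4:**
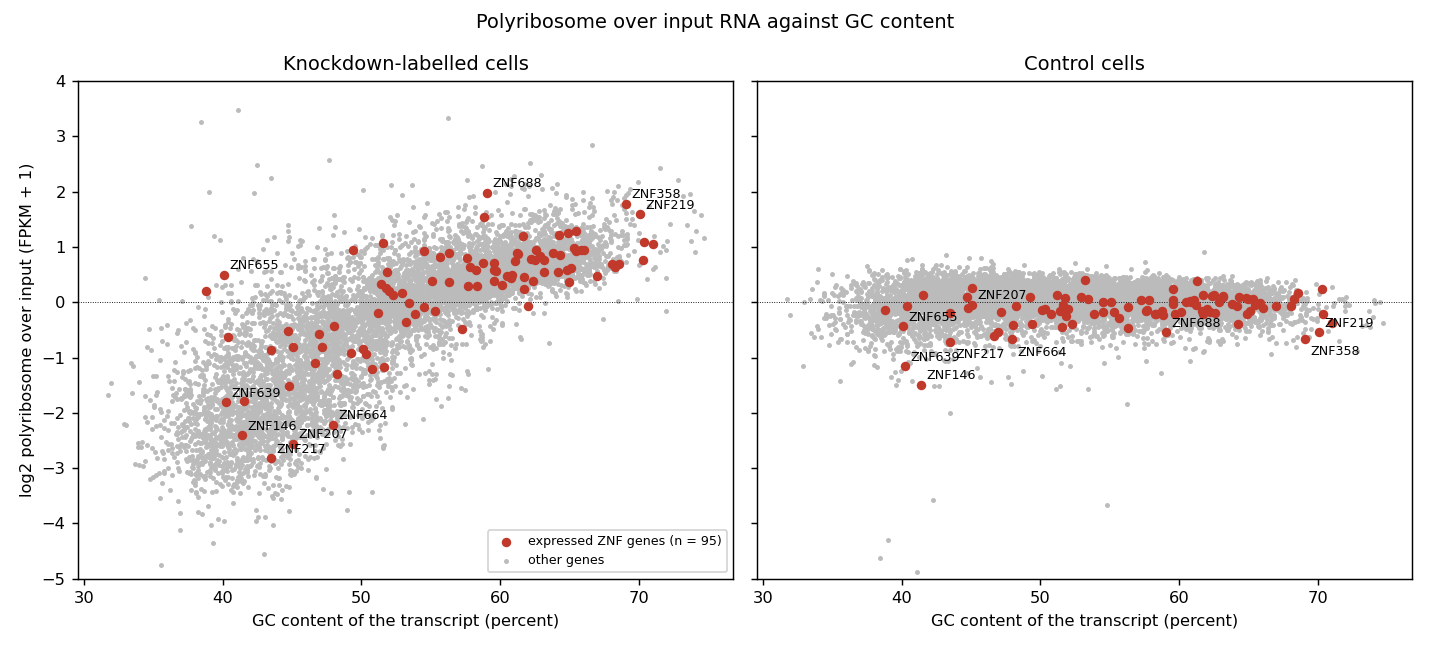
Log2 ratio of polyribosome to input FPKM, each with 1 added (y axis), against the GC content of the transcript (x axis, percent), in knockdown-labelled cells (left) and control cells (right), for 95 members (red) and other genes (grey), from single libraries. Pearson's r over members is 0.746 on the left and 0.309 on the right, and over other genes 0.803 and 0.064. The sign of the left panel turns with the column names.

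The change of this ratio, called translation efficiency in the series, was taken as knockdown-labelled minus control and uses all 4 libraries, so it shares them with the values above. The median over members was 0.49, against -0.12 over all genes. With the columns exchanged it was -0.43, where all genes had -0.05, and with GC content and length removed -0.26, where all genes had -0.41. Over ZNF rows averaging 1 FPKM or more it was -0.069, against -0.28 over all such genes. Over all ZNF rows it was -0.041, against -0.029 over all rows. Members at least 2-fold higher numbered 17 (17.9%), beside 12% of all genes, and 9 (9.47%) were at least 2-fold lower, beside 30.1%. The split became 13 against 13 with equal sums and 25 against 6 when centred on all genes. The highest were ZNF688 (2.52), ZNF358 (2.44), ZNF219 (2.13), ZNF76 (1.78), ZNF513 (1.61) and ZNF576 (1.52). The lowest were ZNF207 (-2.51), ZNF217 (-2.10), ZNF330 (-1.91), ZNF664 (-1.54), ZNF512 (-1.42) and ZNF473 (-1.24). In the authors' deposited table, where 5 is added to each FPKM, the ratio of ZNF207 was 0.194 in knockdown-labelled and 0.973 in control cells, and that of ZNF688 was 2.97 and 0.773.

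**Figure D5:**
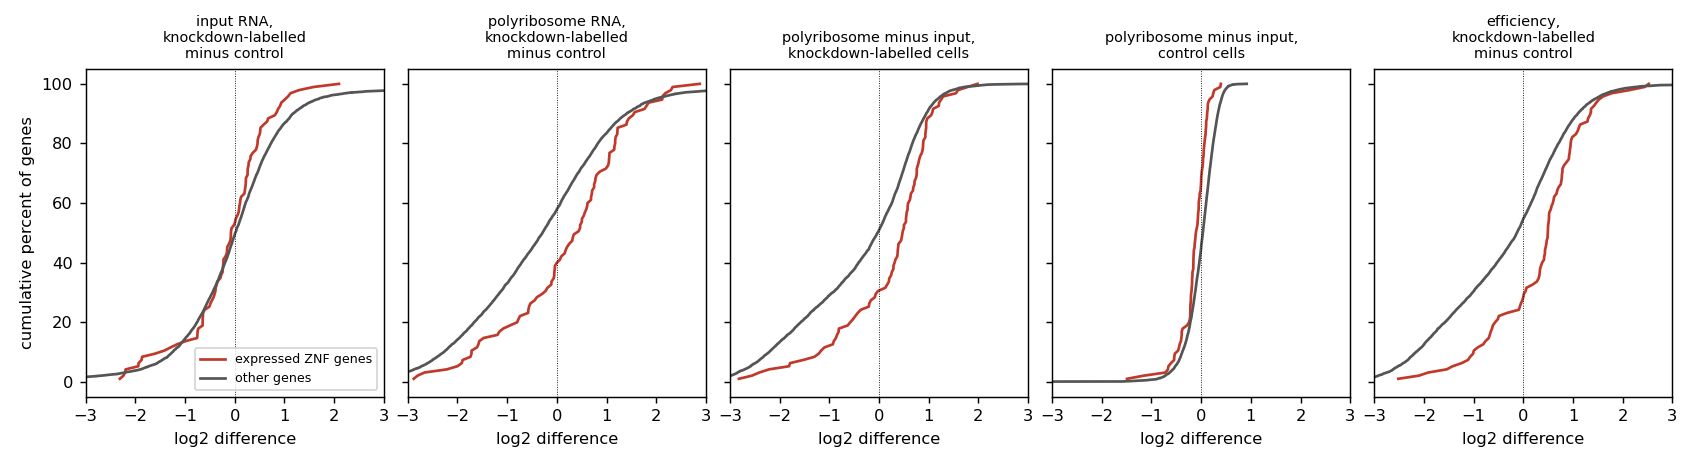
Cumulative percent of genes (y axis) at or below each log2 difference (x axis) for 95 members (red) and other genes (grey), in the 5 comparisons named above the panels. The members lie right of the other genes in polyribosome RNA (median 0.44 against -0.29) and close to them in input RNA (-0.07 against 0.01). With GC content and length removed their polyribosome median is -0.30, against -0.38 over all genes. Over ZNF rows averaging 1 FPKM or more it is -0.33, against -0.48 over all such genes.

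Of related zinc finger families, 10 of 41 ZBTB genes, which join fingers to a BTB domain, 4 of 18 ZFP genes, 1 of 26 ZKSCAN and ZSCAN genes and 10 of 26 KLF and SP genes reached the mean of 5 FPKM. Their median polyribosome differences were 0.56 for ZBTB, -0.75 for ZFP and -0.68 for KLF and SP genes. Median GC contents were 60.2%, 56.4% and 54.1% for these families.

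Partners of KAP1 silencing, listed to stand beside the KRAB members, had 37 of 38 genes in the table and 30 at a mean of 5 FPKM. In input RNA 4 of the 30 were at least 2-fold higher and 0 lower, beside 13.2% and 14.4% of all genes, with a median of 0.38. On polyribosomes 0 were higher and 12 lower, with a median of -0.32, beside 16.7% and 32.9% of all genes. TRIM28 (KAP1) was at 344 FPKM in polyribosome and 251 FPKM in input RNA of knockdown-labelled cells, against 212 and 172 FPKM in control cells, so each knockdown-labelled library was above each control library. EHMT2, a histone H3 lysine 9 methyltransferase, was at 47 and 33.5 FPKM, against 24.1 and 19.9 FPKM. CBX3, the HP1 gamma protein, was at 9.51 and 99.5 FPKM, against 72.7 and 83 FPKM, and RBBP7, a histone-binding subunit of NuRD, at 20.2 and 62.9 FPKM, against 141 and 107 FPKM. Both had the lowest polyribosome differences of the list, -2.81 and -2.74, and EHMT2 (0.94) and MBD3 (0.92), a NuRD subunit, the highest. In input RNA the highest were RBBP4 (1.70) and UHRF1 (1.53) and the lowest RBBP7 (-0.76) and SUV39H1 (-0.59). In control cells the log2 ratio of polyribosome to input was highest for MTA2 (0.43) and PPHLN1 (0.41) and lowest for ADNP (-0.47) and DNMT3B (-0.29). In knockdown-labelled cells it was highest for MBD3 (1.17) and DAXX (0.61) and lowest for CBX3 (-3.26) and HDAC2 (-2.84), which turns if the columns are exchanged. The change of the ratio was highest for MBD3 (1.09) and DAXX (0.56) and lowest for CBX3 (-3.07) and HDAC2 (-2.62).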

How the data were processed

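The authors deposited 1 table of FPKM per gene symbol for the 4 libraries and, per the file headers, an efficiency ratio for each kind of cell, which the values show to be polyribosome over input FPKM with 5 added to both. The submitters' processing notes name TopHat and the builds hg19 and GRCh37. How reads were counted, with which annotation, strand rule and filters, is not given in the sources used here. A stranded mRNA kit was used, per the labels' protocols. FPKM divides by transcript length and by all mapped fragments, so a few high genes lower all others of their library. The lowest values stop at the rounding of the table and whole reads were not recovered.

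Differences were taken on log2(FPKM + 1), which understates changes of low genes, and with 1 library per group a gene was counted at 2-fold or more, with no test. The 7379 background rows and the members share the mean of 5 FPKM. The counting step was tested on simulated data with known changes. Transcript GC content, length and zinc fingers (spaced C-x2-4-C-x12-H-x3-5-H in the standard notation for cysteine and histidine) came from 1 GENCODE 29 transcript per gene, matched for 97.0% of the 7379 rows and all 95 members. A KRAB box needed 16 of 41 and a SCAN box 24 of 60 residues of a consensus made from ZNF proteins. The GC and length alternative removed a quadratic trend over all genes and kept the mean. Promoters and gene order came from RefSeq, GRCh38.p14, by symbol.

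The members, the gene lists and the rule for named genes were chosen with earlier results of these data known. Named are NSUN6, the 10 members of highest mean, the 6 highest and 6 lowest of each comparison, all members in a role list, those around the threshold, and the 2 highest and lowest partners of KAP1 per comparison. The rule held for the marker lists too, of which, apart from the squamous and epithelial lists, only sums and examples are printed. TRIM28 was added to the partners. Other genes, such as ZNF143, ZNF142 and ZNF629, were named after their values were seen. Python 3.11.15, pandas 2.3.3, numpy 2.4.6 and matplotlib 3.10.9 were used.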

Additional observations from a re-analysis of the deposited data

Results flagged for a closer look

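In 3 members the log2 polyribosome ratio over input had opposite signs in the 2 kinds of cell, with each at least 0.5 from 0. This difference was not tested because each ratio rests on 2 single libraries. The share of all genes that meet this rule is not given here, so the count does not set the members apart. ZNF688 had 1.98 in knockdown-labelled and -0.54 in control cells, a difference of 2.52. ZNF358 had 1.78 and -0.66, a difference of 2.44. ZNF219 had 1.59 and -0.54, a difference of 2.13. For ZNF688 and ZNF358 the knockdown-labelled polyribosome library stood above the other 3 libraries, at 30.8 and 106 FPKM. For ZNF219 the knockdown-labelled input was the lowest library, at 6.32 FPKM. With the knockdown-labelled columns exchanged, the 3 differences were -1.44, -1.12 and -1.05. ZNF688 and ZNF219 overlap other coding genes.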

How the results depend on the processing

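Each group is 1 library of unknown depth, so no interval, floor or test could be given, and no statement here extends to replicates. No paired analysis was possible because each group has 1 library and the labels give no replicate numbers. For the same reason no library could be left out. Percentages below are of the members at least 2-fold apart, beside those of all genes in the same setting. All differences are of log2 values. The 9 alternatives kept the sign of the median in control cells, though exchanging the knockdown-labelled columns cannot alter it. In these cells the share at least 2-fold lower on polyribosomes was 0% with a pseudocount of 5, beside 0.407% of all genes. It was also 0% for members at 5 FPKM in each library, beside 0.346%. In input RNA, the share higher was 2.11% with a pseudocount of 5, beside 9.47% of all genes. For the 64 members at 5 FPKM in each library, the share lower was 4.69% in polyribosome RNA, 1.56% for the ratio in knockdown-labelled cells and 1.56% for its change. All genes at 5 FPKM in each library had 19.8%, 16.1% and 18.8%. The change was lower in 3.16% with a pseudocount of 5, beside 21.8% of all genes, and polyribosome RNA higher in 14.7%, beside 13.2%. Centring on all genes gave a polyribosome median of 0.72, and equal sums gave a median change of 0.25.

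Adding low ZNF rows moved most medians across 0. At a mean of 1 FPKM the medians were -0.33 in polyribosome RNA, -0.40 for the knockdown-labelled ratio and -0.069 for its change. All genes had -0.48, -0.27 and -0.28. The shares higher were 17.4%, 5.65% and 10%, beside 15.4%, 6.57% and 9.69% of all genes. For the ratio 25.7% were lower, beside 33.5%. With no filter the medians were -0.069, -0.19 and -0.041, beside -0.043, -0.027 and -0.029 over all genes. The shares higher were then 8.28%, 2.69% and 4.76%, beside 10.3%, 4.15% and 6.18%. With GC content and length removed the medians were -0.30, -0.30 and -0.26, beside -0.38, -0.37 and -0.41 over all genes. The shares higher were then 8.42%, 4.21% and 6.32%, beside 10.2%, 3.1% and 5.22%. Exchanging the knockdown-labelled columns gave medians of 0.40 in input RNA, 0.078 in polyribosome RNA, -0.48 for the ratio and -0.43 for its change. All genes had -0.23, -0.008, 0.018 and -0.049. In input RNA 25.3% were then higher, beside 15.9% of all genes. In polyribosome RNA 7.37% were higher, beside 12.7%, and 10.5% lower, beside 14%.

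Of the 265 values of the 53 members named by rule, those at least 2-fold apart that changed sign are given here. The exchange turned the polyribosome difference to 0.85 for ZNF146, 0.98 for ZNF207, 1.08 for ZNF217, 0.37 for ZNF512, -0.027 for ZNF524, 0.73 for ZNF639 and 0.32 for ZNF664. It turned the change of the ratio to 2.60 for ZNF207, 3.53 for ZNF217, 1.67 for ZNF330, 0.81 for ZNF343, 1.36 for ZNF473, 1.62 for ZNF512, 0.54 for ZNF586, 1.21 for ZNF609 and 2.88 for ZNF664. In the other direction it turned to -1.05 for ZNF219, -1.12 for ZNF358, -0.75 for ZNF488, -1.28 for ZNF511, -0.81 for ZNF513, -1.03 for ZNF524, -0.63 for ZNF576, -1.05 for ZNF580, -1.44 for ZNF688 and -1.32 for ZNF76. The ratio in knockdown-labelled cells changes sign under the exchange by construction. Among values under 2-fold, the exchange turned the sign of 54 and removing GC content and length that of 57. Among values of at least 2-fold, that removal turned the ratio to -0.15 for ZNF511, -0.039 for ZNF513 and -0.23 for ZNF524, and its change to -0.16 for ZNF511 and -0.026 for ZNF524. It turned the polyribosome difference to -0.064 for ZNF524, 0.31 for ZNF639 and -0.53 for ZNF787. Of the 265 values, with no change of sign, a pseudocount of 0.1 took 11 past 2-fold, one of 5 brought 30 within it, equal sums took 8 past and 5 within, centring 3 and 6, removing GC content and length 9 and 33, and the exchange 18 and 18 outside the ratio in knockdown-labelled cells. The causes were not tested.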
